A study of Homo sapiens with 2 samples.

Results

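The genes of the MSL and NSL acetyltransferase complexes were followed in L-428 cells, a Hodgkin lymphoma line, with and without PRAME knock-down. The 10 genes were MSL1, MSL2 and MSL3 of the MSL complex, KAT8, which belongs to both complexes, and KANSL1, KANSL2, KANSL3, MCRS1, PHF20 and HCFC1 of the NSL complex. The members were every probe set annotated to exactly 1 of these symbols, which gave 25 probe sets of 54675 on the array, for 10 of 19775 annotated genes. No probe set carried a member together with another gene. The list was drawn up around MSL3, whose values on these arrays had been seen, so the list was chosen by the MSL3 signals on both arrays, which are given as a description. The other genes were included as its partners.
One array was hybridized with RNA from L-428 cells stably carrying the empty vector pcDNA6.2-GW/EmGFP-miR-neg and the other with RNA from L-428 cells carrying pcDNA6.2-GW/EmGFP-miR-PRAME, which encodes an artificial microRNA against PRAME. Both vectors express a green fluorescent protein, and transfected cells were selected with blasticidin. Whether the cells were clones or pools, and their time in culture, is not given in the sources used here. PRAME, a cancer/testis antigen and repressor of retinoic acid signaling, gave 2115 on the control array and 1251 on the knock-down array (log2 ratio -0.80). PRAME was thus lower but still measured.
With 1 array for each condition no test was possible, and no difference could be set against the spread between cultures. A difference in all cells of a culture and a difference in some of them cannot be told apart. All values are MAS5 signals on a linear scale, and log2 ratios are knock-down over control, centered on the median of 27307 probe sets with a mean signal of at least 97.7 (kept probe sets). Of the 25 probe sets, 20 were kept, and each of the 10 genes had at least 1. Each gene was represented by the strongest of its kept probe sets (11794 genes in all). Of 10 Reed-Sternberg cell markers, 9 were kept, with control signals from 1893 for TNFRSF8 to 14676 for GATA3, and CCL22 was low (9.05 and 15.2). Of 6 B cell genes 3 were kept, namely CD79A (178 and 332, log2 ratio 0.85), MS4A1 (95.9 and 135, log2 ratio 0.44) and BLK (297 and 220, log2 ratio -0.48). Of 4 T cell markers and 4 myeloid markers with a probe set none was kept. The highest mean log2 signal among these was that of CD3E (85.6 and 71.5), and CD2 gave 46.6 and 107.

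KAT8, also named MOF, transfers acetyl groups to lysines of histone H4 and works in 2 alternative assemblies. In the MSL complex it is held by the scaffold MSL1 together with the ubiquitin ligase MSL2 and the chromodomain protein MSL3, and acetylates lysine 16 of histone H4. The MSL complex was first known from the fruit fly, where it serves dosage compensation of the male X chromosome. In the NSL complex KAT8 is bound by KANSL1 and acts mainly at promoters of housekeeping genes.
Promoter sequences are shown for the 3 genes that belong to the MSL complex only, since MSL3 was the member with a difference of at least 1.5-fold and MSL1 and MSL2 are its direct partners. Each is the 250 bases before an annotated start of transcription, taken from RefSeq (GRCh38.p14) and written 5′ to 3′ on the strand of the gene. Capitals mark GGGCGG (the GC box bound by SP1) and CCAAT (the box bound by NF-Y) on either strand, so that a GC box may read CCGCCC and overlapping matches run together. The windows are chrX:11757909-11758158 (plus strand) for the first MSL3 start, chrX:11759397-11759646 (plus strand) for the MSL3 start furthest downstream, chr17:40121721-40121970 (plus strand) for MSL1 and chr3:136196336-136196585 (minus strand) for the upstream start of MSL2.
MSL3 first start: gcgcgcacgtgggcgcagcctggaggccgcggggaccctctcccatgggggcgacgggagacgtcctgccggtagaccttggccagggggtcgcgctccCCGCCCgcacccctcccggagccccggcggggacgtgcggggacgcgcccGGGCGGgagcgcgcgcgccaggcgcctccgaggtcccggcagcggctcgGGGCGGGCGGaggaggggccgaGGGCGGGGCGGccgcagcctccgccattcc
MSL3 downstream start: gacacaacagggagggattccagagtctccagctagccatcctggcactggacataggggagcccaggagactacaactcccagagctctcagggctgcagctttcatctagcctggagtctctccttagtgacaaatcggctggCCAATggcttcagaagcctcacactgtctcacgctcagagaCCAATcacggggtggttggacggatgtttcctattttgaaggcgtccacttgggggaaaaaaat
MSL1: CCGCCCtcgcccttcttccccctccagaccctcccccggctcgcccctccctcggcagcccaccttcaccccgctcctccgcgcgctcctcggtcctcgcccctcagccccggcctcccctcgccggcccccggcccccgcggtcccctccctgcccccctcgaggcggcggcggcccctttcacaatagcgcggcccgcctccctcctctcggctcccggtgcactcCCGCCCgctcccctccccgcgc
MSL2: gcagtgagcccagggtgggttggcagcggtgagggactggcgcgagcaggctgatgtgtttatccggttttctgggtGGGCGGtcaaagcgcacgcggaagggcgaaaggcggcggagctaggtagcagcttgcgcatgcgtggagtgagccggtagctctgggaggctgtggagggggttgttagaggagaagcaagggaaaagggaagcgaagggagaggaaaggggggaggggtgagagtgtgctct
The window of the first MSL3 start held 6 GC boxes, no CCAAT and 39 CG dinucleotides. A further MSL3 start, not shown, has a window that overlaps the first (chrX:11757987-11758236). It held 11 GC boxes, no CCAAT and 44 CG dinucleotides. The window of the downstream start held no GC box, 2 CCAAT boxes, which begin 105 and 64 bases before the start, and 5 CG dinucleotides. The array values do not tell which start was used. MSL1 had 2 GC boxes and 30 CG dinucleotides. The upstream MSL2 start had 1 GC box, 15 CG dinucleotides and 1 match to GCGCATGC, a part of the NRF1 motif. The other MSL2 start, not shown, had no GC box and 10 CG dinucleotides. Over all 35116 windows the median was 11 CG dinucleotides. RefSeq promoters were found for 8 of the 10 genes (14 windows). Of these 14 windows 9 held GGGCGG, 2 held CCAAT (MSL3 and KANSL2), 4 held the E-box CACGTG, 2 held AGGTCA, a half-site of retinoic acid receptors (KANSL3 and MCRS1), and 0 held TATAAA. Of all 35116 promoter windows of this length 42.6% held GGGCGG, 32.0% CCAAT, 6.34% CACGTG, 12.1% AGGTCA, 2.63% GCGCATGC and 10.7% TATAAA. These are matches of letters on both strands and do not show binding of a factor.

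MSL3 was the only member with a difference of at least 1.5-fold, and all of its probe sets were higher in the knock-down cells. The probe set with the highest signal, 207551_s_at, gave 2365 on the control array and 6863 on the knock-down array (log2 ratio 1.49, 2.81-fold after centering). Probe set 236165_at gave 283 and 785 (log2 ratio 1.43, 2.69-fold). Probe set 214009_at gave 157 and 364 (log2 ratio 1.17, 2.25-fold). The chromodomain of MSL3 recognizes methylated histone tails, and its MRG domain joins it to MSL1.
Each of the 3 probe sets thus passed 2-fold, a threshold that 1.52% of all kept probe sets with 1 gene passed in this direction, and no kept member probe set was 2-fold lower (0.983% of all kept probe sets with 1 gene). Of the 2735 genes with 3 or more kept probe sets, 2 were at least 2-fold higher in every one (0.0731%), namely MSL3 and the aromatase gene CYP19A1. MSL3 had rank 32 from the highest log2 ratio of 11794 genes. Since the list was drawn up around MSL3 for these same values, the shares and the rank are description only. The 3 probe sets measured the same RNA and are not replicates. The range of 0.32 between the MSL3 probe sets exceeded the range in 31.7% of 1556 genes also measured by 3 kept probe sets. When 64 was added to every signal, which lowers the ratios of weak signals, the log2 ratios of the 3 probe sets were 1.47, 1.25 and 0.91.
The related gene MSL3B on chromosome 2 had no probe set with 1 gene in the annotation, and the probe sequences were not used here, so a shared signal was not tested.

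**Figure D1:**
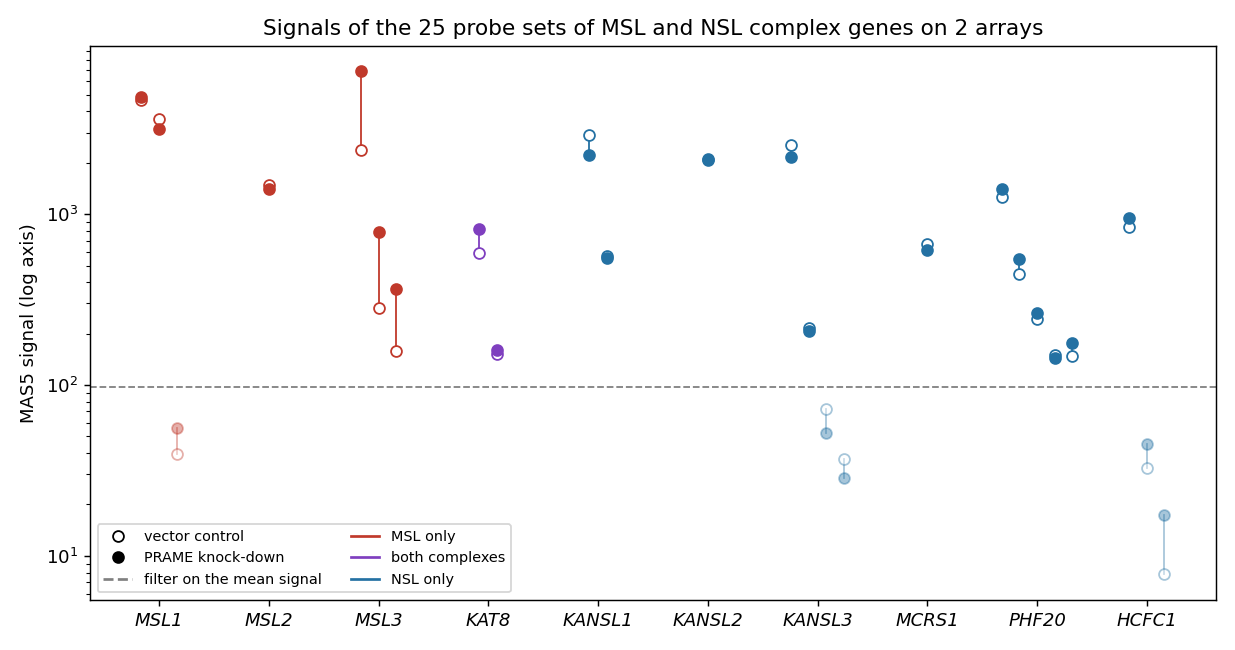
MAS5 signal (log axis) of every probe set of the 10 genes, with 1 array per condition. Open circles are the vector control, filled circles the PRAME knock-down, a line joins both arrays, and pale symbols are the 5 probe sets below the filter (dashed line at 97.7). The 3 MSL3 probe sets have the longest lines among the kept probe sets (2365 to 6863 for the strongest), whereas those of KANSL2 nearly coincide (2086 and 2065).

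The partners of MSL3 in the MSL complex did not share its difference. MSL1, the scaffold that binds KAT8, gave 4665 on the control array and 4813 on the knock-down array for 212708_at, which is 1.03-fold before centering and lies at the center of all kept probe sets. The second kept MSL1 probe set, 224765_at, gave 3611 and 3161 (log2 ratio -0.24). The third, 230155_x_at, was below the filter with 39.5 and 55.8. MSL2, a RING finger protein that ubiquitinates histone H2B, was measured by 1 probe set with a signal of 1486 and 1406 (log2 ratio -0.12).
Both MSL1 and MSL2 were thus within 1.5-fold, as were 10266 of all 11794 genes, so this is near the background.
KAT8, the catalytic subunit of both complexes, had the second highest log2 ratio of the members. Its probe set 221820_s_at gave 593 on the control array and 814 on the knock-down array (log2 ratio 0.41, 1.33-fold). The other KAT8 probe set, 214885_at, had nearly equal signals of 152 and 160 (log2 ratio 0.027). The difference of KAT8 therefore depended on the probe set. The gap of 0.38 between both exceeded the gap in 63.9% of 3104 genes also measured by 2 kept probe sets.

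None of the 6 genes that belong to the NSL complex only reached 1.5-fold in either direction, which few of all genes did (7.54% higher and 5.42% lower), so that a count of 0 among 6 is near the background. Their log2 ratios lay between -0.43 for KANSL1 and 0.12 for HCFC1, with a median of -0.11. KANSL1, KANSL2, KANSL3 and MCRS1 were below 0, and PHF20 and HCFC1 were above 0.
KANSL1, the scaffold that binds KAT8 in this complex, had the lowest log2 ratio of the 10 members. Probe set 225117_at gave 2903 on the control array and 2221 on the knock-down array (log2 ratio -0.43). Its other probe set, 243589_at, gave 566 and 557 (log2 ratio -0.070), so the difference was found in 1 of both. The antisense gene KANSL1-AS1 had signals of 549 and 513 for 230388_s_at and of 88.8 and 120 for 229857_s_at.
KANSL3, a further subunit specific to this complex, was lower in both kept probe sets, with a signal of 2544 and 2146 for 224318_s_at (log2 ratio -0.29) and of 215 and 206 for 220950_s_at (log2 ratio -0.11). Its 2 probe sets below the filter were also lower, with signals of 72.0 and 52.7 and of 36.7 and 28.5. All 4 KANSL3 probe sets thus had 1 direction, each by less than 1.5-fold.
KANSL2 gave 2086 on the control array and 2065 on the knock-down array in its single probe set 221821_s_at (log2 ratio -0.060). MCRS1, a forkhead-associated domain protein that is also part of the INO80 complex, gave 666 and 616 (log2 ratio -0.16). Both genes lie on chromosome 12.
PHF20, which reads methylated lysines with its Tudor domains, was measured by 5 kept probe sets. The strongest, 209422_at, gave 1266 and 1406 (log2 ratio 0.11). The 4 others had log2 ratios of 0.24 (206567_s_at, 448 and 547), 0.21 (235389_at, 147 and 176), 0.070 (1569906_s_at, 244 and 264) and -0.10 (209423_s_at, 149 and 143). The PHF20 probe sets agreed closely, with a range of 0.35, which exceeded that in only 12.6% of 294 genes also measured by 5 kept probe sets.
HCFC1, a cell cycle regulator that links chromatin enzymes to transcription factors, gave 844 on the control array and 947 on the knock-down array for 202474_s_at (log2 ratio 0.12). Its 2 remaining probe sets were below the filter, with 32.5 and 45.2 for 231177_at and 7.79 and 17.4 for 202473_x_at. The log2 ratio of 1.11 for 202473_x_at was 0.14 with the offset of 64 and rests on signals far below the filter.

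Over all 10 members the median log2 ratio was -0.030, beside -0.0069 over all 11794 genes, and -0.060 over the 9 members without MSL3. Of the members 4 were above and 6 below 0, MSL1 by a negligible amount, and of all genes 49% were above and 51% below 0. One member (MSL3) was at least 1.5-fold higher and 0 were at least 1.5-fold lower, whereas 7.54% of all genes were at least 1.5-fold higher and 5.42% lower. At 2-fold, which 1.73% of all genes passed in the higher direction, the same single member passed, and no member was 2-fold lower (0.729% of all genes). These shares give the background only, and MSL3 was known to be high when the list was chosen.
Of the 20 kept member probe sets 3 were at least 1.5-fold higher, all of MSL3, and 0 were lower, beside 7.38% and 6.54% of all kept probe sets with 1 gene. The 17 others lay between -0.43 and 0.41. Over 5840 genes with several kept probe sets, the log2 ratios within a gene had a pooled SD of 0.33. This SD covers probe sets and not cultures. The log2 ratios of the 9 other members were thus of the size of the differences between probe sets of a gene or not much larger, and the order among them is not resolved.
The center of the log2 ratios was not the same at all signals. Its median over kept probe sets went from 0.21 for the weakest eighth (97.7 to 136) to -0.088 for signals between 1362 and 2799, the range of KANSL1, KANSL2, KANSL3 and MSL2. Its part in the small differences of the members was not tested. The loess alternative, which subtracts this trend, gave log2 ratios of -0.35 for KANSL1, -0.21 for KANSL3, -0.042 for MSL2 and 0.025 for KANSL2, which changed sign, and of 1.56 for MSL3 and 0.46 for KAT8.

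**Figure D2:**
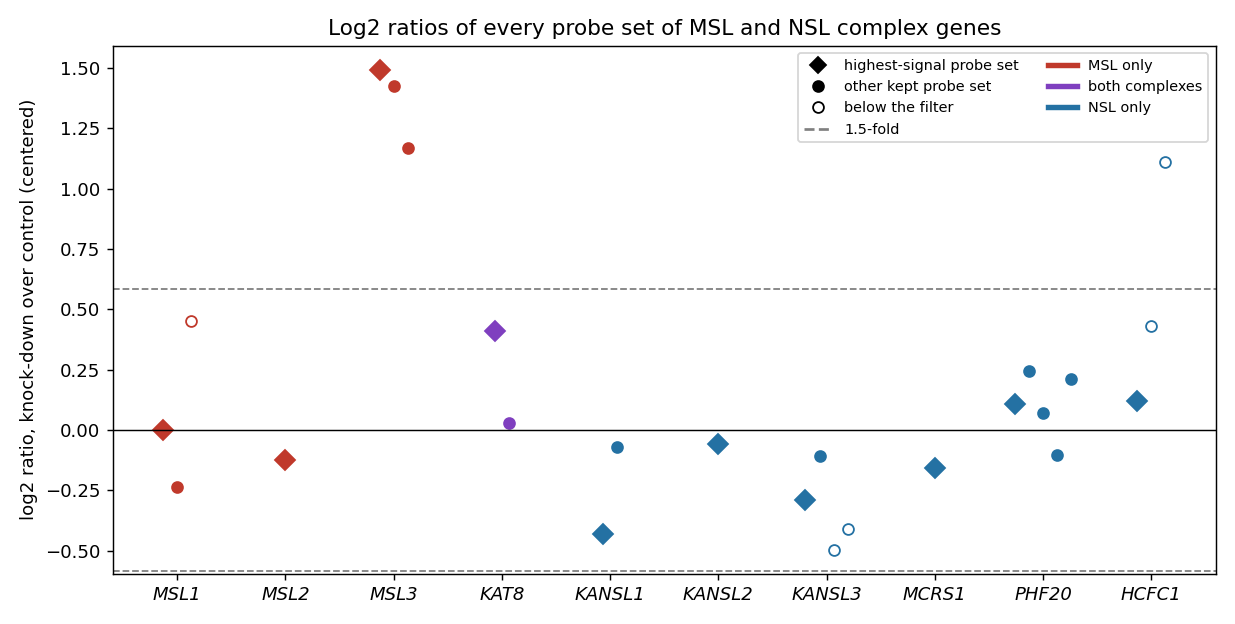
Log2 ratio (knock-down over control array) for all 25 probe sets, 1 array per condition. Diamonds are the probe sets with the highest signal, filled circles other kept probe sets, open circles probe sets below the filter, and dashed lines stand at 1.5-fold. The MSL3 probe sets lie between 1.17 and 1.49, and all other kept probe sets lie between the dashed lines.

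MSL3 and HCFC1 lie on chromosome X, where the median log2 ratio over 383 other genes was -0.0078. Of the 10 kept genes nearest to MSL3, 5 on each side in the RefSeq order, 6 were above 0 and their median was 0.11. The nearest kept gene on one side, HCCS, a heme lyase of mitochondria, gave 2215 on the control array and 1731 on the knock-down array (log2 ratio -0.40). The nearest kept gene on the other side, PRPS2, an enzyme of nucleotide synthesis, gave 2015 and 1798 (log2 ratio -0.21). Both of these were thus lower, though genes below the filter, such as ARHGAP6 and FRMPD4, lie closer to MSL3.
The Toll-like receptor gene TLR7 was the only one of the 10 neighbours that was at least 1.5-fold higher, with a signal of 75.4 and 145 (log2 ratio 0.90). The others lay between -0.43 for TBL1X, a corepressor subunit, and 0.48 for SHROOM2. Between these were WWC3 (0.10), MID1 (0.23), TMSB4X (0.33), FAM9C (-0.021) and TCEANC (0.11).
PHF20 lies on chromosome 20, where the median over 326 other genes was -0.18, while PHF20 had a log2 ratio of 0.11. For the chromosomes of the remaining members the medians over other genes were between -0.025 for chromosome 17 (MSL1 and KANSL1) and 0.080 for chromosome 16 (KAT8).

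**Figure D3:**
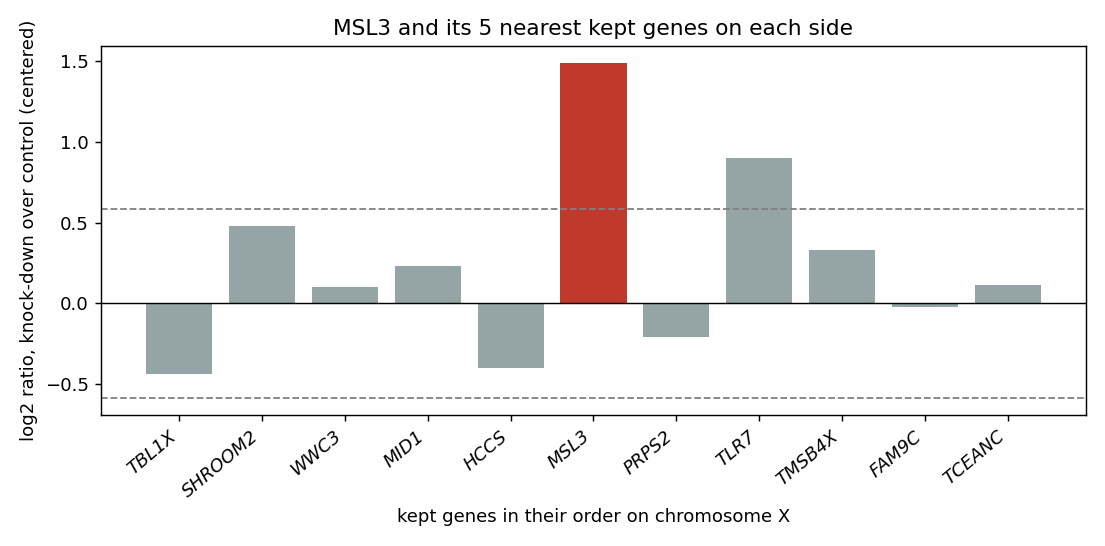
Log2 ratio (knock-down over control array) for MSL3 (red) and the 5 nearest kept genes on each side in their order on chromosome X, 1 array per condition, with dashed lines at 1.5-fold. MSL3 stands at 1.49 between HCCS at -0.40 and PRPS2 at -0.21, and TLR7 reaches 0.90 from low signals.

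OGT and WDR5 are further subunits of the NSL complex outside the 10 genes. OGT, which attaches N-acetylglucosamine to proteins and cleaves HCFC1, was measured by 6 kept probe sets. The strongest, 209240_at, gave 8463 on the control array and 9237 on the knock-down array (log2 ratio 0.081), whereas 4 others were between -0.38 and -0.32 and the last was at 0.12. WDR5, a WD-repeat protein shared with the SET1 and MLL methyltransferases, had nearly equal signals of 927 and 968 in 225170_at (log2 ratio 0.018). Its second probe set, 223308_s_at, gave 530 and 215 (log2 ratio -1.35). The 2 WDR5 probe sets thus disagreed, and only 1 of them was beyond 1.5-fold.
Of the 5 paralogues of members none reached 1.5-fold in the probe set with the highest signal. Of all genes 7.54% were at least 1.5-fold higher and 5.42% lower, so this is near the background. Of the 19 kept probe sets of the paralogues 1 was at least 1.5-fold higher (KANSL1L) and 1 lower (PHF20L1). Among all kept probe sets with 1 gene 7.38% were higher and 6.54% lower by this fold. MORF4L1 and MORF4L2, which share the MRG domain with MSL3, had log2 ratios of -0.097 and 0.084. HCFC2 had 0.53 and -0.17 in 2 probe sets, and KANSL1L had values from -0.44 to 0.69 in 5 probe sets. PHF20L1 was at -0.056 in its strongest probe set and lower in all 6 kept ones, down to -0.91 for 1554472_a_at.
Of 27 genes of the other MYST acetyltransferases and their partners, 12 were above and 15 below 0, with a median of -0.11 and 0 beyond 1.5-fold in the strongest probe set. Of all kept probe sets with 1 gene, 6.54% were at least 1.5-fold lower, 7.38% at least 1.5-fold higher and 0.983% at least 2-fold lower. Of the 57 kept probe sets of these 27 genes, 6 were at least 1.5-fold lower and 0 higher. The lowest by strongest probe set was TRRAP, a scaffold of the KAT5 complex, with a log2 ratio of -0.52, and its second probe set had -0.95. KAT5 was at -0.40, KAT6A at -0.24, KAT6B at 0.026 and KAT7 at 0.11. Weaker probe sets of 3 genes were more than 2-fold lower while their strongest were within 1.5-fold, namely 216361_s_at of KAT6A (log2 ratio -1.34), 218234_at of ING4 (-1.24) and 229197_at of ING5 (-1.22). Of the 5 acetyltransferases of other families EP300 (-0.29), HAT1 (-0.26), KAT2A (-0.21) and CREBBP (-0.12) were below 0 and KAT2B (0.19) was above.
Sirtuins are deacetylases, and SIRT1 and SIRT2 can remove the acetyl group from lysine 16 of histone H4. SIRT1 gave 3599 on the control array and 2910 on the knock-down array (log2 ratio -0.35) and SIRT2 gave 676 and 643 (-0.12). The mitochondrial SIRT3 was at 0.55, with 0.52 and 0.35 in 2 further probe sets. A second SIRT2 probe set, 1558331_at, was lower with 162 and 101 (log2 ratio -0.74). SIRT5 (0.39), SIRT6 (0.33) and SIRT7 (0.26) were also above 0 in their strongest probe sets. The 6 kept sirtuins of 7 had a median of 0.30, and 0 were beyond 1.5-fold in the strongest probe set. Of the 12 kept sirtuin probe sets 1 was at least 1.5-fold lower, namely 1558331_at of SIRT2, and 0 were at least 1.5-fold higher. Among all kept probe sets with 1 gene these shares were 6.54% and 7.38%. SIRT4 was below the filter, with signals of 81.1 and 118 and of 71.5 and 101.
Of 15 genes of the SET1 and MLL complexes 1 was at least 1.5-fold lower, the PTIP gene PAXIP1 with a signal of 2525 and 1723 (log2 ratio -0.60), and their median was 0.055. This is near the 5.42% of all genes that were at least 1.5-fold lower. A weaker probe set of KMT2A, 212076_at, was also lower (2220 and 1403, log2 ratio -0.71). The other kept KMT2A probe sets lay between -0.35 and 0.53, with -0.13 for the strongest, 226981_at. Of the 36 kept probe sets of these complexes 2 were at least 1.5-fold lower and 0 higher. Among all kept probe sets with 1 gene 6.54% were lower and 7.38% higher by this fold, so the count is near the background. Of the bromodomain proteins BRD2 and BRD3, which bind acetylated histone tails, BRD2 was at 0.0042 and BRD3 at -0.67 with a signal of 2204 and 1425. The second kept BRD3 probe set, 212547_at, was at -0.36 (1467 and 1178), so that 1 of both was beyond 1.5-fold. No gene of these lists was at least 1.5-fold higher in its strongest probe set, a fold passed by 7.54% of all genes. That share depended on the signal and was 3.44% with a filter at the 75th percentile in place of the median. The lack of higher genes is thus not read as a result about these lists.

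**Figure D4:**
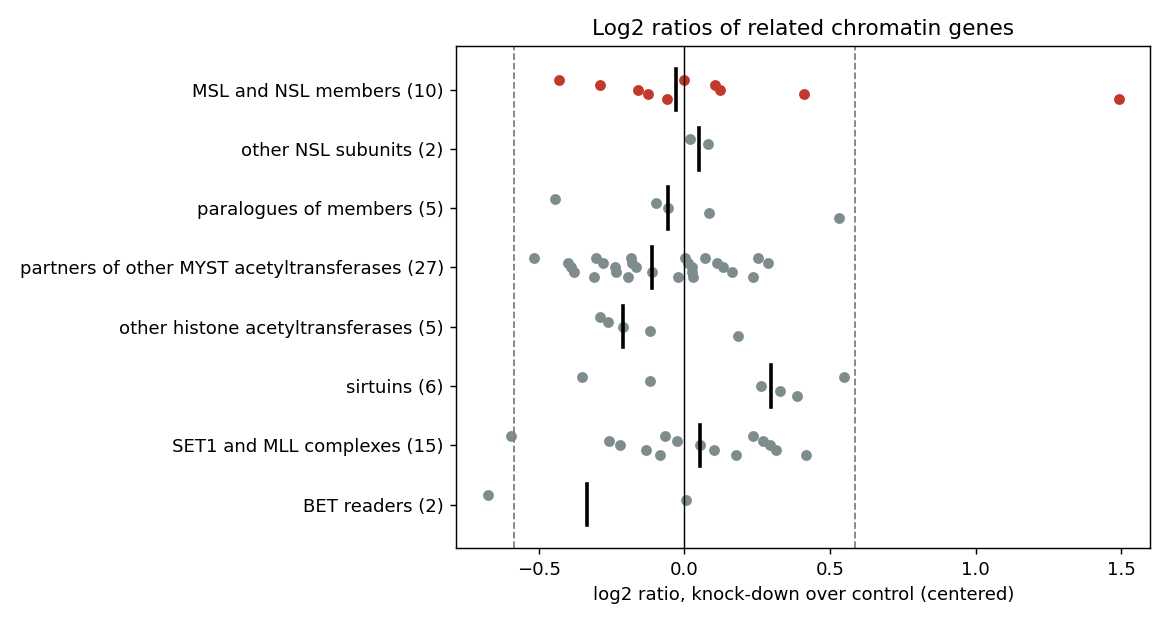
Log2 ratio (knock-down over control array) for the members and 7 lists of related chromatin genes, with 1 point for each gene (strongest probe set), black bars at the medians, the number of genes in brackets and dashed lines at 1.5-fold. MSL3 at 1.49 is the only point to the right of the dashed lines, and BRD3 (-0.67) and PAXIP1 (-0.60) lie to the left.

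**Figure D5:**
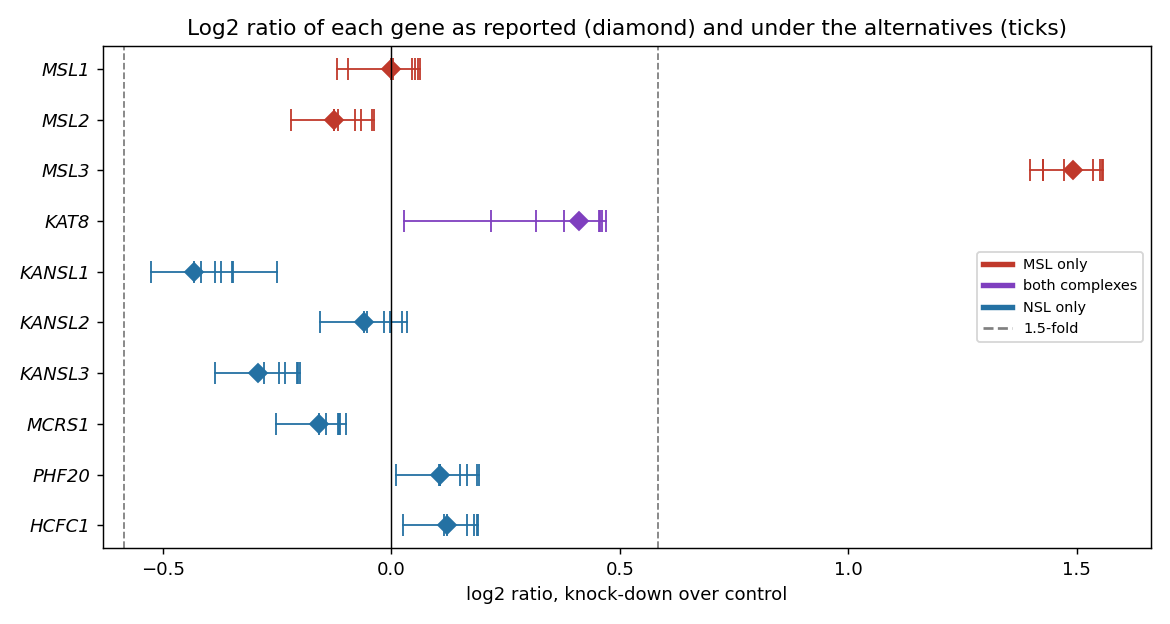
Log2 ratio of each member as reported (diamond) and under the alternatives of scaling, filter, offset and choice of probe sets (ticks, joined by a line), 1 array per condition, with dashed lines at 1.5-fold. MSL3 stays between 1.40 and 1.56, all other values lie between the dashed lines, and those of MSL1 and KANSL2 lie on both sides of 0.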

How the data were processed

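RNA from L-428 cells with control vector and with PRAME knock-down vector was measured on HG_U133PLUS2.0 arrays, 1 per condition. Intensities were deposited by the authors as linear MAS5 signals for 54675 probe sets, made in expression console 1.1. Both arrays had been scaled to a mean of 500.1 without the highest and lowest 2% of values. The series text names another cell line and array type, whereas the sample labels, the paper and the number of probe sets give those named here. Detection calls were not used here.
The 62 control probe sets were left out. Signals were set on the log2 scale. A probe set was kept when its mean log2 signal reached the median over all probe sets (97.7 as a signal), and log2 ratios were centered (0.045 was subtracted). The platform annotation gave exactly 1 gene for 41097 probe sets (1801 had several genes, 11777 had none), and the gene ID of 41043 of these was found in the RefSeq table (GRCh38.p14), which served for names, chromosomes and gene order. The array annotation names no genome build. Ratios were described by thresholds of 1.5-fold and 2-fold. The number of arrays limits the precision.
The members, the lists and the thresholds were chosen with earlier results of these data known. Named were all members, PRAME, the 5 nearest kept genes on each side of MSL3, all kept genes of pathway lists of up to 6 genes and up to 3 genes beyond 1.5-fold of longer lists. The lists of cell markers were described by counts. CYP19A1, TRRAP, KAT5, KAT6A, KAT6B, KAT7, ING4, ING5, KMT2A and the sirtuins SIRT1, SIRT2, SIRT3, SIRT4, SIRT5, SIRT6 and SIRT7 were chosen after values were seen. The individual cell markers, KANSL1-AS1 and the promoter motifs were also chosen after values or sequences were seen. Alternatives were no centering, quantile normalization, loess subtraction (span 0.4), an offset of 64, omission of the filter, a stricter filter (percentile 75), the median of all kept probe sets per gene, and no probe sets ending in _s_at, _x_at or _a_at. The scripts were tested on simulated data. Computations were made with Python 3.11.15 (pandas 2.3.3, numpy 2.4.6, statsmodels 0.14.6) and figures with matplotlib 3.10.9.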

Additional observations from a re-analysis of the deposited data

How the results depend on the processing

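In all 8 alternatives MSL3 was the only member at least 1.5-fold higher and 0 members were at least 1.5-fold lower. No centering, no filter and the stricter filter each only moved the log2 ratios of all members by the same amount. The list was drawn up around MSL3 for its values on these arrays, so this is a description. The log2 ratio of MSL3 was between 1.40 (no filter) and 1.56 (quantile normalization). The median over the members was between -0.12 and 0.049 and had no settled sign, as had MSL1 (-0.12 to 0.064) and KANSL2 (-0.15 to 0.034). The 8 remaining members had 1 sign throughout. Of all genes, 889 were at least 1.5-fold higher and 639 lower as reported, against 476 and 463 with the offset of 64, 3480 and 2331 without the filter and 254 and 273 with the stricter filter. Log2 ratios and their medians were compared with the pooled SD of 0.33 between probe sets, since there were no replicates. Counts of members were compared as counts, and none changed. Of 156 values, these counts included, 3 moved, each by more than this SD. With the median over probe sets, OGT and WDR5 had a median of -0.49 in place of 0.049. Without probe sets ending in _s_at, _x_at or _a_at, the BET readers were at -0.67 (BRD3 alone) in place of -0.34, and KAT8 was at 0.027. This setting measured 6 of the 10 members. No replicate could be left out. No paired analysis was possible because each condition has 1 array. The ratios of the 5 member probe sets below the filter are limited by their weak signals.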
